A study of Homo sapiens with 6 samples.

Results

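The genes described here are 48 collagens, lysyl oxidases, matrix glycoproteins and proteoglycans, with the intermediate filament gene VIM, taken by gene name from the 45019 gene rows measured. CTGF and CYR61 stand in the files under their current names, CCN2 and CCN1. They were followed in the cell line MDA-MB-468, which derives from a breast cancer of the basal-like, triple-negative kind, in 2 groups. One group received 100 µM DETA/NO, a slow donor of nitric oxide, for 10 days, with cells collected and replated every 48 h and the compound added again after 4 h of adherence. The other group, of the same line at day 10, was untreated, and is listed with the same passage every 48 h and 4 h of adherence. Total RNA was sequenced from 3 labelled samples in each group. The question of the series is how long exposure to nitric oxide, described there as blocking the m6A eraser FTO, relates to the transcriptome.

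The extracellular matrix is the protein scaffold outside cells. Fibrillar collagens form cables, collagen IV and laminins form the sheet of the basement membrane on which epithelial cells rest, and lysyl oxidases crosslink collagen and elastin chains. Collagen molecules are trimers, often built from the products of different genes. Fibronectin, thrombospondins, TGFBI and the CCN proteins link this scaffold to integrin receptors, and LTBP proteins tether latent TGF-beta to the matrix. In carcinomas most fibrillar collagen is made by fibroblasts of the stroma, while the tumour cells make basement membrane and adhesive glycoproteins.

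Values deposited for replicates 1 and 2 of DETA/NO were the same throughout, under 1 library name, and entered as 1 library, which leaves n = 2 DETA/NO and n = 3 untreated libraries. Cells were pooled by replicate at each passage, but the labels do not call the replicates separate cultures, so the p-values reflect the spread among these libraries alone. Whole reads recovered from the values came to 28897422 and 34210950 in the DETA/NO libraries and to 32872785 to 34637343 in the untreated libraries. Of the 8 markers of the line, EGFR had 245827 and 247990 normalized counts in DETA/NO libraries and 217563 to 226490 in untreated libraries, and PGR had at most 5.73 in any library. The keratin gene KRT6A was called higher by 1.07 on the log2 scale (limma adjusted p = 0.00212). KRT5 was called higher by 0.24 (0.00908), with 0.196 to 0.286 when any 1 library was left out. KRT17, EPCAM and CDH1 were not called, with log2 fold changes of 0.32, 0.06 and -0.06. ESR1, the estrogen receptor gene that a triple-negative line is typed as lacking at the protein level, had 925.2 and 1093 in DETA/NO libraries and 822.5 to 845.6 in untreated libraries. It was called higher by 0.27 (limma adjusted p = 0.000675), and by 0.151 with an adjusted p of 0.104 when DETA/NO library 3 was left out. Of the 9 fibroblast markers, 7 lay under the filter on low values, THY1 and TCF21 were listed at 0 in every library, and LUM and DCN had at most 1.91. The summed level of the fibroblast markers was 252.6 and 296.3 in DETA/NO libraries, against 184 to 238 in untreated libraries, most of it FAP. In bulk RNA, fewer cells of a type and less RNA per cell cannot be told apart.

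Nitric oxide treatment went with more RNA of several collagens and of the adhesive proteins THBS1 and TGFBI, and with less RNA of fibronectin, CCN2, COL18A1, LTBP1 and FBN1. Of the 48 genes, 36 had a mean value of at least 10 normalized counts and were tested. By limma with Benjamini-Hochberg adjustment over all genes (adjusted p under 0.05), 19 of the 36 rose and 6 fell, together 69.4%, where 43.4% of all 16409 genes tested were called. The same rule called 21.7% of all genes higher and 21.7% lower, against 52.8% higher and 16.7% lower here. The genes were chosen with earlier results of these data known, so these shares describe the set and do not test it. At least 2-fold rises were called in 6 of the 36 and at least 2-fold falls in 0, where 2.21% of all genes rose and 1.58% fell that far. The groups did not overlap in 29 of the 36, with the DETA/NO libraries above in 22 and below in 7. Of all genes, 61.2% did not overlap, 30.4% with DETA/NO above and 30.8% with DETA/NO below. Separated groups, a call and a log2 fold change of at least 0.5 in size came together in 10 of the 36 and in 12.1% of all genes. The median log2 fold change of the 36 was 0.21, against -0.00016 over all genes. None of the 36 passed the filter through 1 group alone. The 11 tested genes that were not called are described with their families.

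**Figure D1:**
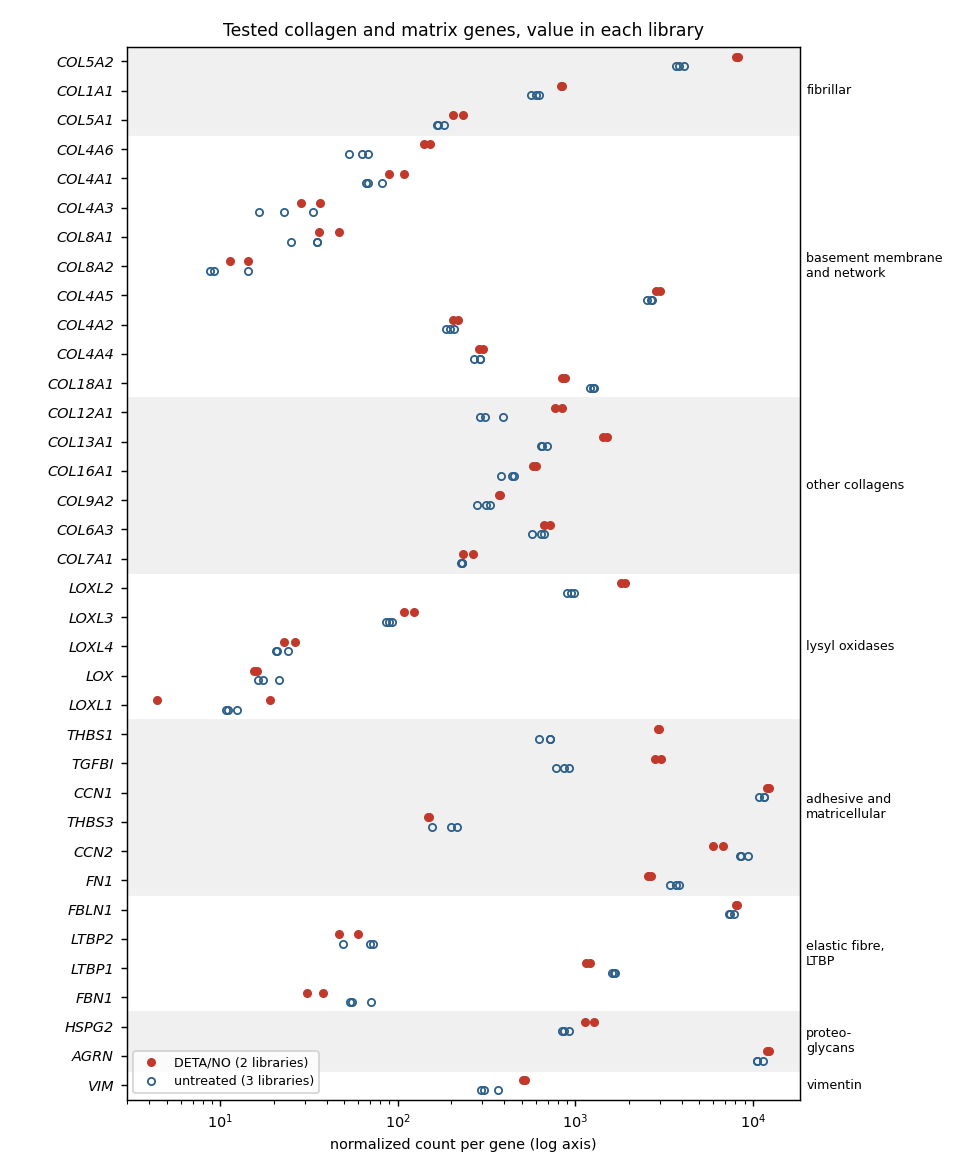
Normalized count of each of the 36 tested genes in each library, on a log axis, with the 2 DETA/NO libraries as filled points above the 3 untreated libraries as open points, grouped by role. THBS1 and TGFBI show the widest gap between groups, and the 2 DETA/NO libraries lie close together in most genes, with LOXL1 the exception (4.43 and 19.0).

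**Figure D2:**
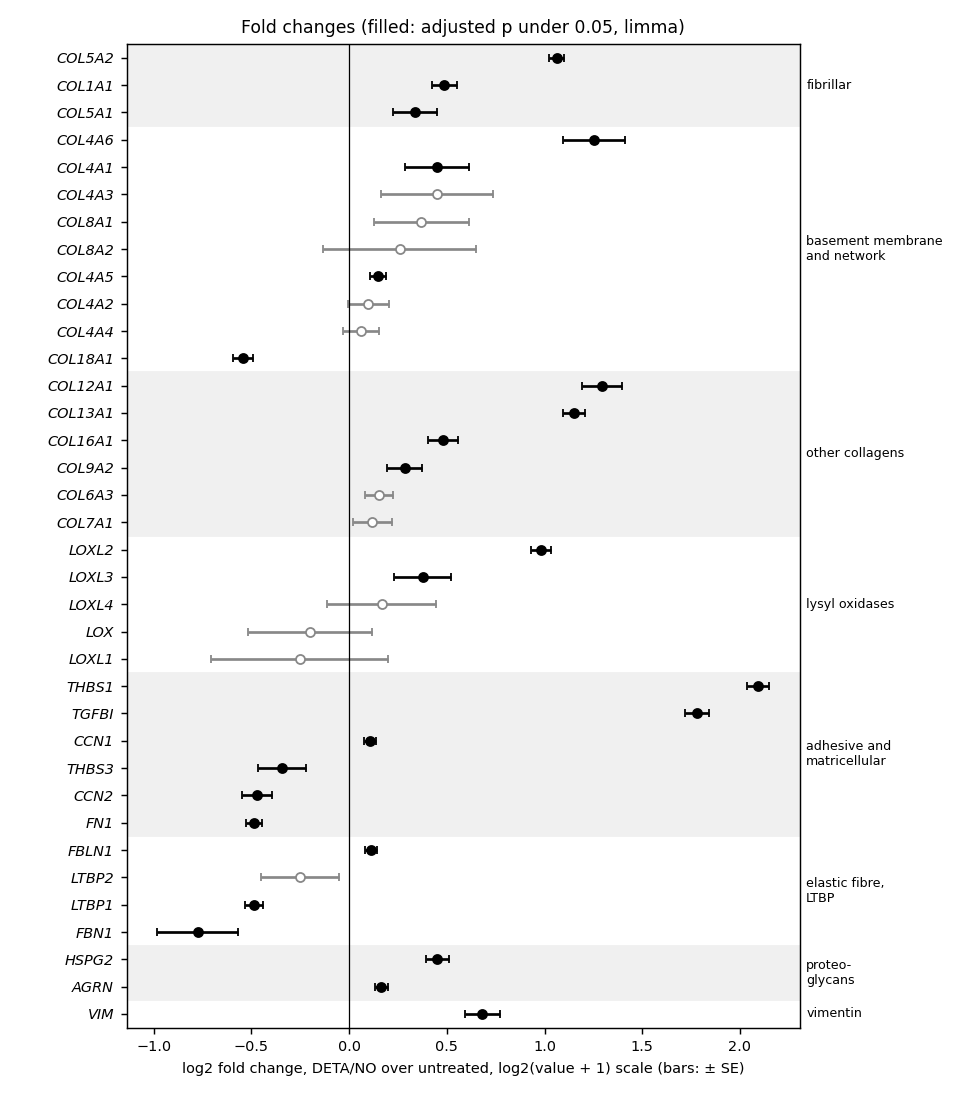
Log2 fold change of DETA/NO over untreated on the log2(value + 1) scale, with SE bars, for the same 36 genes. Filled points mark an adjusted p under 0.05 in limma, and the values run from 2.09 for THBS1 to -0.77 for FBN1.

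The 6 tested adhesive and matricellular glycoproteins split into 3 rises and 3 falls, where 21.7% of all genes rose and 21.7% fell. THBS1 and TGFBI had the largest log2 fold changes of the set. THBS1 encodes thrombospondin 1, a trimeric glycoprotein that binds integrins and CD47 and can activate latent TGF-beta. THBS1 had 2954 and 2913 normalized counts in the DETA/NO libraries, against 722.5, 720.0 and 625.7 in the untreated libraries. The groups were far apart, and both DETA/NO libraries stood at about the same level. The log2 fold change was 2.09 ± 0.057 (SE, limma adjusted p = 4.64e-22), and leaving out any 1 library gave 2.02 to 2.13. THBS1 lies on chromosome 15 at 39581079 to 39599466 on the plus strand (GRCh38). Other genes' spans cover 64.4% of it and their exons 7.6% of its exon bases. FSIP1, the overlapping gene that passed the filter, had 39.9 and 38.9 in DETA/NO libraries and 31.4 to 39.2 in untreated libraries (adjusted p = 0.514).

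TGFBI encodes a secreted protein, induced by TGF-beta, that binds collagens and integrins. TGFBI had 2802 and 3056 normalized counts in DETA/NO libraries, against 920.4, 862.3 and 775.4 in untreated libraries. Every DETA/NO value lay above every untreated value, for a log2 fold change of 1.78 ± 0.061 (SE, limma adjusted p = 4.15e-15). The gene spans 136028895 to 136063818 on the plus strand of chromosome 5, with no overlapping gene in the annotation. The 250 bases before the RefSeq start of these genes are shown because their rises were the largest of the set. Sequences are from RefSeq (GRCh38.p14), at chr15:39580829-39581078 for THBS1 and chr5:136028738-136028987 for TGFBI, both on the plus strand, 5′ to 3′. Capitals mark the letters GGGCGG (an SP1 box) and GGAATG (a TEAD motif) on either strand.
THBS1: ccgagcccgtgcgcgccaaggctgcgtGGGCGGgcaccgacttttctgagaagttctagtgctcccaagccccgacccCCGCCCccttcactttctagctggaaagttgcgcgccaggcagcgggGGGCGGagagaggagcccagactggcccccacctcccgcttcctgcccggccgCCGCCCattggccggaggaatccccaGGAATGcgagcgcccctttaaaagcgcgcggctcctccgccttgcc
TGFBI: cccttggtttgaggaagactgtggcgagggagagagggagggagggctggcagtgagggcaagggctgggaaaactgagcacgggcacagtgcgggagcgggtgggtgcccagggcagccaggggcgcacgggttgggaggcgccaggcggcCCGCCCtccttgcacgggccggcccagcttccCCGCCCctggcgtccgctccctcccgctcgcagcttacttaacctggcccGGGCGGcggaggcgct

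Promoter windows of 300 bases, of which 50 follow the start, were matched for 5 of the 6 genes called at least 2-fold higher: THBS1, TGFBI, COL4A6, COL12A1 and COL13A1. GGAATG on either strand was in the windows of THBS1 and COL12A1, 2 of the 5, and in 4907 of all 34943 windows. GGGCGG was in 4 of the 5 and in 44.9% of all windows. COL4A6 has 2 windows, and its matches were in the window of its second start. The SMAD letters CAGACA were in 1 of the 5 (COL4A6) and in 16.9% of all windows, and the TATA letters TATAAA in 1 (COL13A1) and in 11.6%. The AP-1 letters TGAGTCA and the SMAD palindrome GTCTAGAC were in 0 of the 5, and in 5.0% and 0.2% of all windows. Each motif was searched on both strands, and a match is a description of the letters only.

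Fibronectin (FN1), the dimeric glycoprotein on which cells assemble matrix fibrils, moved the other way. FN1 had 2668 and 2558 normalized counts in DETA/NO libraries, against 3854, 3676 and 3444 in untreated libraries, with no overlap. Its log2 fold change was -0.48 ± 0.041 (SE, limma adjusted p = 1.03e-10). FN1 lies on chromosome 2 at 215360440 to 215436172. CCN2, the connective tissue growth factor, had 5974 and 6799 in DETA/NO libraries, against 8523, 9456 and 8554 in untreated libraries. Its log2 fold change was -0.47 ± 0.077 (adjusted p = 0.00693), and the call was lost when untreated library 3 was left out (0.0766). CCN1, a related matricellular protein, had 12090 and 12346 in DETA/NO libraries, against 10913 to 11607 in untreated libraries. That small rise of 0.11 on the log2 scale had an adjusted p of 0.0061. Leaving out untreated library 1 gave 0.0946, and leaving out DETA/NO library 3 gave 0.0658.

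THBS3, a thrombospondin that assembles as a pentamer, had 149.6 and 148.1 in DETA/NO libraries, against 156.7, 200.1 and 215.3 in untreated libraries. It fell by 0.34 on the log2 scale (limma adjusted p = 0.0272). Its call was lost without untreated library 2 (adjusted p = 0.102) or 3 (0.126), or without the shared DETA/NO library 1 and 2 (0.0765) or DETA/NO library 3 (0.0872). Other genes' spans cover 76.2% of THBS3 and their exons 25.4% of its exon bases. MTX1, which overlaps it, had 165.1 and 165.2 in DETA/NO libraries and 128.5 to 158.6 in untreated libraries (limma adjusted p = 0.126). SPARC, a collagen-binding glycoprotein, lay just under the filter with 4.43 and 9.50 in DETA/NO libraries and 5.54 to 14.3 in untreated libraries. THBS2, TNC, POSTN and SPP1 were listed at 0 in every library. TNC lies wholly inside the span of another gene and THBS2 has 62.2% of its span overlapped, while POSTN and SPP1 have no overlapping gene. Of 2109 protein-coding genes with over 99% of their span overlapped, 93.0% were listed at 0 in every library, against 14.2% of 7075 without overlap. A 0 for TNC is therefore given as a listing, not as a measured absence.

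Among the fibrillar collagens, every one of the 3 tested genes rose, where 21.7% of all genes rose. COL5A2 encodes a chain of collagen V, which nucleates collagen fibrils. COL5A2 had 8025 and 8232 normalized counts in DETA/NO libraries, against 4119, 3870 and 3700 in untreated libraries. The groups were separated, and the log2 fold change was 1.06 ± 0.038 (SE, limma adjusted p = 4.81e-19). COL5A2 lies on chromosome 2 at 189031896 to 189225312. Its neighbour COL3A1, the main chain of collagen III in stroma, begins at 188974320 on the same chromosome and had 1.90 and 3.32 in DETA/NO libraries and 1.85 to 2.94 in untreated libraries.

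The partner chain COL5A1 had a smaller log2 fold change, with 203.9 and 234.5 in DETA/NO libraries and 166.3, 169.7 and 183.0 in untreated libraries. Its log2 fold change was 0.34 ± 0.111 (SE, limma adjusted p = 0.0142). Leaving out untreated library 1 gave 0.0506 and leaving out DETA/NO library 3 gave 0.200. COL1A1, a chain of collagen I, had 842.1 and 835.6 in DETA/NO libraries, against 566.7, 601.3 and 629.4 in untreated libraries, a rise of 0.49 ± 0.064 (adjusted p = 2.19e-07). COL1A2, the other chain of collagen I, had no read in either DETA/NO library and at most 2 reads in an untreated library. COL27A1 had 5.54 and 4.75 in DETA/NO libraries and 1.91 to 3.92 in untreated libraries and was not tested. Of the fibroblast markers, LUM, DCN and THY1 were at or near 0 in both groups, and FAP rose by 0.55 (limma adjusted p = 0.000319). Under the filter, PDGFRA had 1.11 and 4.75 in DETA/NO libraries and 7.39 to 13.4 in untreated libraries. PRRX1 had 0 and 4.75 against 3.70 to 9.81, and PDGFRB 3.32 and 2.85 against 2.77 to 4.91. ACTA2 was not called (log2 fold change -0.249, limma adjusted p = 0.646). The part of FAP-expressing cells in the rises of these collagens was not tested.

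Of the 9 basement membrane and network collagens, 3 rose and 1 fell, together 44.4%, near the 43.4% of all genes called. Collagen IV is built from 6 genes that lie as head-to-head pairs on 3 chromosomes, each pair facing away from a shared promoter region. The starts in RefSeq are 127 bases apart for COL4A1 and COL4A2 on chromosome 13, 419 for COL4A3 and COL4A4 on chromosome 2, and 380 for COL4A6 and COL4A5 on chromosome X, where a second COL4A6 start lies 1416 bases from that of COL4A5. COL4A6 had 151.8 and 141.5 normalized counts in DETA/NO libraries, against 67.9, 53.0 and 62.8 in untreated libraries. The groups were well apart, with a log2 fold change of 1.25 ± 0.158 (SE, limma adjusted p = 9e-08). Its partner COL4A5 had 2839 and 3025 in DETA/NO libraries, against 2663, 2721 and 2550 in untreated libraries. COL4A5 rose by 0.15 (adjusted p = 0.0031), a call lost when DETA/NO library 3 was left out (0.107). The 250 bases before each start are shown because the 2 genes share this region and changed by different amounts. Sequences are from RefSeq (GRCh38.p14), each 5′ to 3′ on its own strand, at chrX:108439459-108439708 on the minus strand for COL4A6 and chrX:108439588-108439837 on the plus strand for COL4A5. Capitals mark the 121 bases that both hold, on opposite strands.
COL4A6: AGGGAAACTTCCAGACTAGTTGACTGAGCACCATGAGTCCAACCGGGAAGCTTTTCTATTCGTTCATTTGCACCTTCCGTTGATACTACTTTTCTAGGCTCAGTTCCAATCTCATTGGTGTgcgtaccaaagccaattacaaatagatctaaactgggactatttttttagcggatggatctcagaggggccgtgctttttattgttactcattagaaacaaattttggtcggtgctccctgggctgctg
COL4A5: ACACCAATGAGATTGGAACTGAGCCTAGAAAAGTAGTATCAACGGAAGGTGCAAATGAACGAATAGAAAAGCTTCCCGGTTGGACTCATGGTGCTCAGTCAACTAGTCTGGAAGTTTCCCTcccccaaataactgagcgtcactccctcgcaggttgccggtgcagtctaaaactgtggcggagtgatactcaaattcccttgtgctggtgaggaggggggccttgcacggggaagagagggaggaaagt

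The log2 ratio of COL4A6 to COL4A5 was -4.22 and -4.41 in DETA/NO libraries, against -5.27, -5.66 and -5.32 in untreated libraries, a difference of 1.10. The ratio of COL4A1 to COL4A2 was -1.001 and -1.185 in DETA/NO libraries, against -1.34, -1.48 and -1.51 in untreated libraries, a difference of 0.35. For both pairs the groups did not overlap, and the exact two-sided permutation test gave p = 0.2, the smallest that 10 arrangements allow with this doubled p (adjusted p = 0.3 over the 3 pairs). The ratio of COL4A3 to COL4A4 overlapped between the groups (exact permutation p = 0.4). COL4A1 had 108.6 and 89.3 in DETA/NO libraries, against 81.2, 66.7 and 68.4 in untreated libraries, a rise of 0.45 ± 0.163 (limma adjusted p = 0.0258). That call was lost without untreated library 2 (adjusted p = 0.0814) or 3 (0.051) or without the shared DETA/NO library 1 and 2 (0.274). COL4A2 had 218.3 and 204.2 in DETA/NO libraries and 187.4 to 207.4 in untreated libraries (adjusted p = 0.487). COL4A3 and COL4A4, the chains of the kidney and lung basement membranes, had log2 fold changes of 0.45 ± 0.285 (adjusted p = 0.213) and 0.06 ± 0.091 (adjusted p = 0.621).

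**Figure D3:**
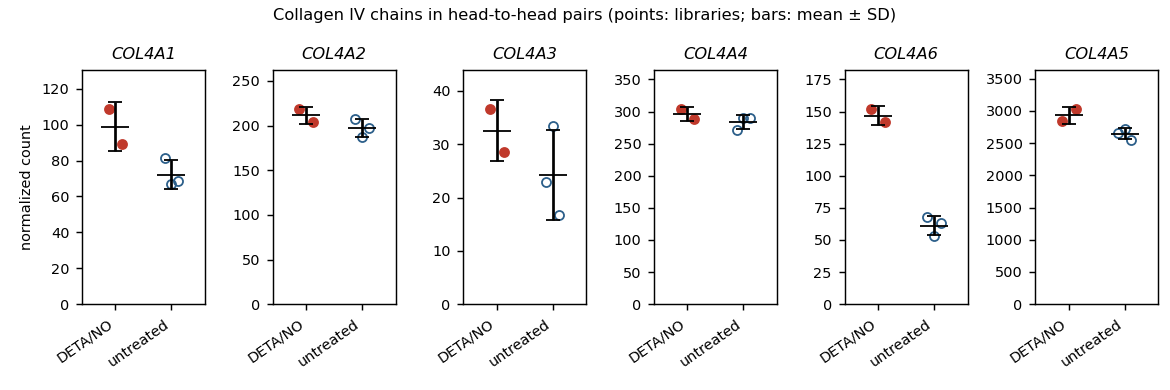
Normalized count of the 6 collagen IV genes in each library, in their head-to-head pairs, with DETA/NO libraries left of untreated libraries and bars for mean ± SD (n = 2 and n = 3). The COL4A6 groups lie apart (141.5 to 151.8 against 53.0 to 67.9). The groups of COL4A5, its partner, also do not overlap but lie closer (2839 and 3025 against 2550 to 2721).

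The fall was that of COL18A1. COL18A1 encodes collagen XVIII, a heparan sulphate bearing collagen whose end fragment is endostatin. COL18A1 had 880.9 and 838.5 normalized counts in DETA/NO libraries, against 1266, 1220 and 1272 in untreated libraries. The groups did not overlap, and the log2 fold change was -0.54 ± 0.053 (SE, limma adjusted p = 4.4e-10). That was the sole call of a fall among the 18 tested collagens of the set, of which 10 rose (55.6%). Of all genes, 21.7% rose and 21.7% fell. COL18A1 lies on chromosome 21 at 45405137 to 45513720, and other exons overlap 16.4% of its exon bases. SLC19A1, which overlaps it, had 556.2 and 634.3 in DETA/NO libraries and 509.1 to 565.8 in untreated libraries. COL8A1 and COL8A2, network-forming collagens of endothelium and cornea, had low levels of 41.3 and 12.9 on average in DETA/NO libraries and 31.9 and 10.8 in untreated libraries, and neither was called (adjusted p = 0.225 and 0.632).

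Of the 6 tested beaded filament, anchoring, fibril-associated and transmembrane collagens, 4 rose (66.7%) and 0 fell. Over all genes tested, 21.7% rose and 21.7% fell. COL12A1 and COL13A1 rose by more than 2-fold. COL12A1 encodes collagen XII, which binds along the surface of collagen I fibrils. COL12A1 had 845.4 and 770.1 normalized counts in DETA/NO libraries, against 389.9, 310.0 and 292.0 in untreated libraries. Untreated library 1 was the highest of its group and still lay below both DETA/NO libraries, and the log2 fold change was 1.30 ± 0.102 (SE, limma adjusted p = 2.63e-08). COL12A1 lies on chromosome 6 at 75084326 to 75206051. COL13A1 encodes collagen XIII, a transmembrane collagen of cell-matrix adhesions. COL13A1 had 1429 and 1521 in DETA/NO libraries, against 646.1, 654.3 and 693.1 in untreated libraries. It rose by 1.15 ± 0.057 (adjusted p = 5.83e-17), and it lies on chromosome 10 at 69801867 to 69964275.

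COL16A1, a fibril-associated collagen, had 603.9 and 579.2 in DETA/NO libraries, against 439.6, 452.2 and 382.6 in untreated libraries, a rise of 0.48 ± 0.078 (limma adjusted p = 6.87e-06). COL9A2, known best from cartilage, rose by 0.29 ± 0.090 (adjusted p = 0.0101), and lost its call when untreated library 1 (0.0753) or the shared DETA/NO library 1 and 2 (0.0537) was left out. Collagen VI is a trimer of different chains, and COL6A3 was the one with counts here. COL6A3 had 724.7 and 668.5 in DETA/NO libraries and 572.9 to 667.3 in untreated libraries (log2 fold change 0.15, adjusted p = 0.0737, and 0.0147 without untreated library 3 or 0.0489 without DETA/NO library 3). COL6A1 and COL6A2 had at most 1.96 in any library. COL7A1, the anchoring fibril collagen, had 265.9 and 232.6 in DETA/NO libraries and 226.5 to 230.5 in untreated libraries (adjusted p = 0.365). COL9A3 lay just under the filter at 8.86 and 2.85 in DETA/NO libraries and 8.32 to 11.8 in untreated libraries.

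Of the 5 lysyl oxidases, 2 rose and 0 fell, together 40.0%, near the 43.4% of all genes called. LOXL2 had 1818 and 1902 normalized counts in DETA/NO libraries, against 983.4, 944.7 and 895.5 in untreated libraries. LOXL2 oxidises lysines of collagen IV. It rose by 0.98 ± 0.052 on the log2 scale (SE, limma adjusted p = 2.2e-16). Other genes' spans cover 54.2% of LOXL2, and ENTPD4, which overlaps it, had 2295 and 2311 in DETA/NO libraries and 2294 to 2346 in untreated libraries. LOXL3 had 108.6 and 124.4 in DETA/NO libraries, against 92.7, 89.3 and 86.0 in untreated libraries, a rise of 0.38 ± 0.145 (adjusted p = 0.0356). Its call was lost without untreated library 1 (adjusted p = 0.0515), 2 (0.0671) or 3 (0.0736) or without DETA/NO library 3 (0.263). LOX had 15.5 and 16.1 in DETA/NO libraries, against 16.2, 21.6 and 17.6 in untreated libraries (adjusted p = 0.65). LOXL4 had 26.6 and 22.8 in DETA/NO libraries and 20.6 to 24.0 in untreated libraries (adjusted p = 0.671). LOXL1 had 4.43 and 19.0 in DETA/NO libraries, on both sides of the 10.8 to 12.4 of untreated libraries, and the direction of its change depends on the library and the test.

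Of the 4 genes of elastic fibres and latent TGF-beta binding, 1 rose (25.0%) and 2 fell. The share of rises was near the 21.7% of all genes that rose, and 21.7% of all genes fell. LTBP1 encodes the protein that tethers latent TGF-beta to the matrix. LTBP1 had 1150 and 1208 normalized counts in DETA/NO libraries, against 1648, 1617 and 1688 in untreated libraries, a log2 fold change of -0.49 ± 0.047 (SE, limma adjusted p = 4.72e-10). FBN1, fibrillin 1, the backbone of microfibrils, had 31.0 and 38.0 in DETA/NO libraries, against 55.4, 70.6 and 53.6 in untreated libraries. The groups were separated at this low level, and the log2 fold change was -0.77 ± 0.207 (adjusted p = 0.00277). LTBP2 had 46.5 and 59.8 in DETA/NO libraries and 49.0 to 73.0 in untreated libraries, with overlap (adjusted p = 0.33). FBLN1, fibulin 1, had 8212 and 8086 in DETA/NO libraries, against 7357 to 7847 in untreated libraries, a rise of 0.11 ± 0.032 (adjusted p = 0.0061). Without untreated library 1 or the shared DETA/NO library 1 and 2, FBLN1 had adjusted p of 0.0649 and 0.0584.

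Both tested proteoglycans rose, where 21.7% of all genes rose. HSPG2 encodes perlecan, the heparan sulphate proteoglycan of basement membranes. HSPG2 had 1272 and 1129 normalized counts in DETA/NO libraries, against 927.0, 863.3 and 839.2 in untreated libraries, a rise of 0.45 ± 0.059 (SE, limma adjusted p = 2.33e-07). AGRN, agrin, a related basement membrane proteoglycan, had 12295 and 12010 in DETA/NO libraries, against 10525 to 11484 in untreated libraries, a rise of 0.16 ± 0.034 (adjusted p = 0.000264). VCAN, versican, was listed at 0 in every library, and other genes' spans cover 45.1% of it. VIM, the intermediate filament protein of mesenchymal cells, had 524.1 and 509.0 in DETA/NO libraries, against 367.0, 308.0 and 293.9 in untreated libraries. VIM rose by 0.68 ± 0.088 (adjusted p = 1.8e-07). VIM-AS1, an antisense gene whose span overlaps it, had 178.4 and 155.7 in DETA/NO libraries and 124.8 to 147.1 in untreated libraries (adjusted p = 0.0822), and whether the authors counted by strand is not given in the sources used here.

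Levels can be compared between genes only per length, here as normalized counts per kb of exon in GENCODE 29. The length joins the exons of all annotated transcripts of a gene, so the order of genes also depends on the annotation. The SD between libraries does not cover that. CCN1 and CCN2 stood first and second in both groups, at 4977 and 2730 per kb in DETA/NO libraries and 4626 ± 156.7 and 3781 ± 226.5 in untreated libraries (SD, n = 3). FBLN1 and AGRN followed in untreated cells at 1036 ± 35.9 and 1008 ± 51.1 per kb, closer together than their spread. COL5A2 came next with 523 per kb in untreated cells and reached 1091 per kb in DETA/NO cells, beside AGRN at 1130 and FBLN1 at 1119. LTBP1, COL4A5 and FN1 lay together in untreated cells at 225 ± 4.85, 223 ± 7.34 and 211 ± 11.9 per kb. THBS1, LOXL2 and TGFBI stood at 320, 326 and 375 per kb in DETA/NO cells, all above FN1 at 151, whereas in untreated cells they stood at 75.3, 165 and 109, all below FN1. The chains of 1 collagen were far from equal: COL5A2 against COL5A1 was 1091 and 19.6 per kb in DETA/NO cells and 523 and 15.5 per kb in untreated cells. Together the 48 genes held 0.219% of all normalized counts in both DETA/NO libraries and 0.186% to 0.188% in the untreated libraries. The 24 collagens summed to 17937 and 18123 normalized counts in DETA/NO libraries, against 11600 to 12118 in untreated libraries, and COL5A2 alone made up most of the difference.

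**Figure D4:**
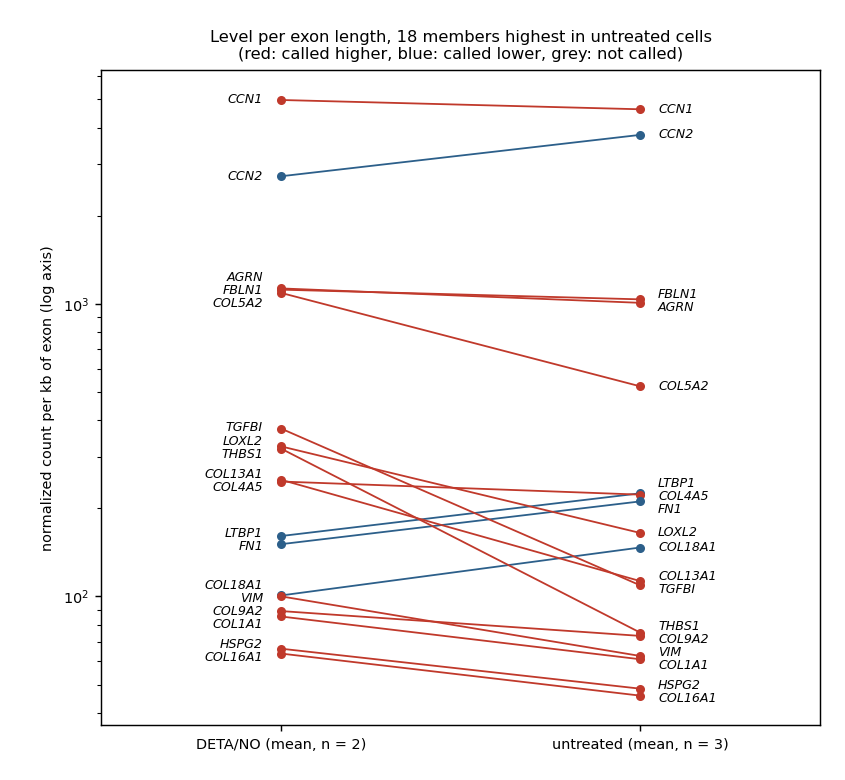
Mean normalized count per kb of exon, on a log axis, in DETA/NO (n = 2, left) and untreated (n = 3, right) cells for the 18 genes highest in untreated cells, with a line per gene coloured by its call. THBS1, TGFBI and LOXL2 lie above FN1 and LTBP1 in DETA/NO cells and below them in untreated cells.

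Other matrix genes were described from 6 lists, where 21.7% of all genes tested were called higher and 21.7% lower. The lists too were chosen with earlier results of these data known, so their shares are a description. Among laminins and nidogens, 7 of 11 tested genes rose and 0 fell. LAMB3, a chain of the laminin that anchors epithelial cells at hemidesmosomes, rose by 1.50 on the log2 scale (limma adjusted p = 8.74e-20). Of 16 integrins and other matrix receptors, 9 rose and 2 fell. ITGA2, a collagen receptor chain, had 4293 and 4025 normalized counts in DETA/NO libraries, against 1857 to 2017 in untreated libraries, a rise of 1.10, and ITGA3, a laminin receptor chain, rose by 0.67. ITGB6, part of an integrin that activates latent TGF-beta, fell by 0.29, and SDC4, a heparan sulphate co-receptor, fell by 0.20. Of 18 collagen biosynthesis genes, 8 rose (44.4%) and 4 fell (22.2%), the falls near their share over all genes. SERPINH1, the collagen chaperone of the endoplasmic reticulum, rose by 0.48 and the prolyl hydroxylase gene P3H2 by 0.97. P4HB, a shared subunit of prolyl hydroxylases and a disulfide isomerase, fell by 0.16, and PPIB, a prolyl isomerase, fell by 0.17 (adjusted p = 0.0060), which became 0.0619 when the shared DETA/NO library 1 and 2 was left out.

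Of 15 matrix proteases and inhibitors, 8 rose (53.3%) and 1 fell (6.67%), where 21.7% of all genes rose and 21.7% fell. TIMP2, a metalloproteinase inhibitor, had 1734 and 1667 normalized counts in DETA/NO libraries, against 845.8 to 885.4 in untreated libraries, a rise of 0.98 (limma adjusted p = 2.14e-16). PLAUR, the urokinase receptor, rose by 0.91, and MMP7, matrilysin, fell by 0.46. Among other collagens, 3 of 7 rose (42.9%) and 2 fell (28.6%). COL15A1, the closest relative of COL18A1, had 566.2 and 520.4 in DETA/NO libraries, against 75.5, 113.8 and 108.1 in untreated libraries, a rise of 2.46 ± 0.143 (SE, adjusted p = 6.65e-11), opposite to the fall of COL18A1. COL17A1, the hemidesmosome collagen, rose by 2.59. COL24A1 had 108.6 and 74.1 in DETA/NO libraries and 134.4 to 158.6 in untreated libraries and fell by 0.69, a log2 fold change that was -0.415 when DETA/NO library 3 was left out. COL28A1 fell by 0.45 (adjusted p = 0.0125, and 0.0704 without DETA/NO library 3). Of 20 targets of YAP and TEAD outside the set, 17 rose and 1 fell, IGFBP3, by 0.08 (adjusted p = 0.0259). IGFBP3 was not called without untreated library 1 (adjusted p = 0.181) or 2 (0.0844) or the shared DETA/NO library 1 and 2 (0.452), where 0 of these genes fell. F3, tissue factor, and GADD45A rose by 0.73 and 0.92. The median log2 fold change of the 20 was 0.38. Of the YAP and TEAD targets CCN1 and CCN2 within the set, CCN1 had a log2 fold change of 0.11 and CCN2 of -0.47.

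**Figure D5:**
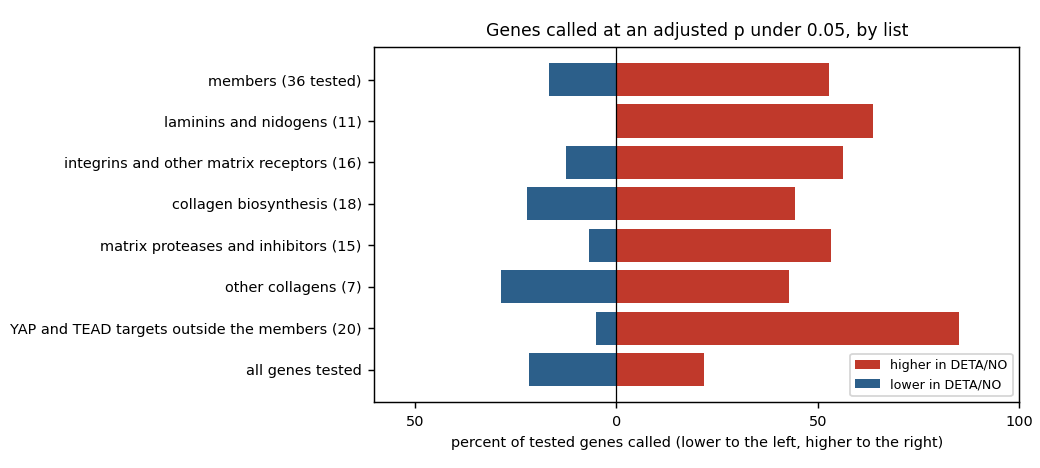
Percent of tested genes called higher (right) or lower (left) in DETA/NO at an adjusted p under 0.05, for the set, the 6 lists and all 16409 genes tested. Each list has a larger share of rises than the 21.7% of all genes, and the lists were chosen with earlier results of these data known. Falls also made up 21.7% of all genes. They number 2 of 7 (28.6%) among other collagens, 4 of 18 (22.2%) in collagen biosynthesis and 0 among laminins and nidogens.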

How the data were processed

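The deposited files hold 1 value per gene, a normalized count signal that the authors made by dividing read counts by 1 factor per library. Per the submitters' processing notes, TopHat2 2.1.1, Bowtie2 2.5.0.0, featureCounts 2.0.3 and DESeq2 1.38.3 were used on the GRCh38 build. The annotation, strand and overlap settings of the counting are not given in the sources used here. All values above 0 (100%) were whole multiples of their library's step (tolerance 0.01), and whole reads were recovered from them.

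Groups came from the sample titles, and identical files were averaged and counted once. Values were tested with limma 3.58.1 under R 4.3.3, with the mean-variance trend and robust options, as log2(value + 1) where a gene's mean reached 10, with Benjamini-Hochberg adjustment over all genes and a threshold of 0.05. Fold changes on this scale understate the change of low genes. Alternatives were other pseudocounts, filters and scalings, a replicate block, each library left out, and the recovered reads tested by edgeR 4.0.16 or DESeq2 1.42.0. The test was checked on simulated counts drawn with the same spread setting for every gene, so the check does not cover the spread of these libraries. Positions, exon lengths and overlaps are from GENCODE 29 and promoters from RefSeq, as above. Python 3.11.15, pandas 2.3.3 and scipy 1.17.1 did the other steps. Dates stood in place of 27 row names, with 0.241% to 0.249% of reads per library, and were kept in the tests.

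The genes and lists were chosen with earlier results of these data known. Genes with an adjusted p under 0.05, separated groups and a log2 fold change of at least 0.5 in size were to be given in full; from each list, up to 2 rises and 2 falls with the smallest adjusted p were named, except 1 gene that is not reported here. Which promoters are printed was chosen after the values were seen.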

Additional observations from a re-analysis of the deposited data

How the results depend on the processing

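With 17 other settings, 15 of the 25 called genes kept direction and call wherever they were tested; FBN1, one of the 15, lay under the stricter filter on means (at least 50) and was not tested there. The 10 others (AGRN, CCN1, CCN2, COL4A1, COL4A5, COL5A1, COL9A2, FBLN1, LOXL3 and THBS3) kept direction throughout and lost the call in 1 to 7 settings. Calls among the 36 ranged from 14 to 18 higher and 4 to 6 lower when 1 library was left out, and over all genes from 2776 to 3573 higher and 2803 to 3504 lower. With neither trend nor robust eBayes, limma called 13 higher and 5 lower here and 2262 higher and 2497 lower over all genes. edgeR called 19 and 6 here and 3621 and 3480 over all genes, and DESeq2 15 and 5 here and 2786 and 2556 over all genes, against 3565 and 3555. Other scalings moved the median of all genes by less than 0.01 on the log2 scale. Each scaling brings the libraries to a common level, so this median could hardly move and cannot show a shift of all RNA. LOXL1 was reversed, with log2 fold changes of 0.095 in edgeR, 0.06 in DESeq2 and 0.687 when DETA/NO library 1 and its copy were left out, against -0.253, and the cause was not tested. With the replicate number as a block, 17 rose and 5 fell (shared library as number 1) or 16 and 6 (as number 2). Deviations from the group mean correlated across genes at 0.029 and 0.001 between the shared DETA/NO library and untreated libraries 1 and 2. Between the libraries numbered 3 the correlation was 0.03. With 2 DETA/NO libraries the deviations of one mirror those of the other, so these values cannot tell whether the numbers pair the samples. LOXL1 had 4 to 20 reads in each library.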

Other observations

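The letters GGACT, the commonest core of sites where RNA carries m6A, were counted in the longest protein-coding transcript of each tested gene in GENCODE 29, a choice made after the data were seen. Their median density was 1.25 per kb in the 36 tested genes of the set and 0.93 per kb over 12962 tested protein-coding genes. It was 1.14 per kb in the 19 genes that rose and 0.65 per kb in the 6 that fell, with a range of 0 to 2.81 among these 6. These are counts of letters, not of methylated sites, and no test was made. The tested genes of the set have a median exon length of 9.11 kb, against 5.11 kb over 13052 tested protein-coding genes.

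Markers of other cell types moved in both directions. The summed level of the 7 endothelial markers was 616.1 and 672.3 normalized counts in DETA/NO libraries, against 428.8 to 467.0 in untreated libraries. Of the 6 tested, 3 rose and 0 fell, where 43.4% of all genes tested were called and 21.7% were called higher. Whether these 6 genes differ from all genes was not tested. TEK rose by 1.75 on the log2 scale (limma adjusted p = 0.000941), CDH5 by 1.195 (9.93e-08) and KDR by 0.55 (0.000178). VWF, PECAM1 and ESAM were not called, with log2 fold changes of 0.40, -0.16 and -0.009, and CLDN5 had 0 to 1.11 in every library. The 6 immune markers summed to 427.7 and 491.9 in DETA/NO libraries, against 923.2 to 977.1 in untreated libraries. Nearly all of that was CD14, which fell by 1.15, while PTPRC rose by 1.33, with 34.4 and 33.2 in DETA/NO libraries and 8.83 to 16.6 in untreated libraries, and CD68 was listed at 0 in every library. Their part in the changes of matrix genes was not tested.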
